A study of Homo sapiens with 30 samples.

Results

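The difference between the dose effects of a pair of multi-herb formulas on gene expression was examined in SW1783 cells, a long-established line from a human astrocytoma. The dose effect of Banhasasim-tang (500 against 20 µg/mL) was set against the dose effect of Bojungikgi-tang (500 against 20 µg/mL), and the genes that moved in opposite directions were described. The comparison used 10 of the 30 libraries analysed, chosen by formula and dose as labelled. Banhasasim-tang had 2 libraries at 500 and 2 at 20 µg/mL, and Bojungikgi-tang had 3 at each. All 10 cultures received an ethanol extract, and RNA was collected after 24 h. Libraries at 100 µg/mL (2 of Banhasasim-tang, 3 of Bojungikgi-tang) and 3 vehicle libraries, labelled 0.1% DMSO where the series' design text has 2%, are given beside them. For extracts whose 20% inhibitory concentration was below 500 µg/mL, the series' design text makes that concentration the highest dose, so doses are those the sample labels state.

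Banhasasim-tang is built on Pinellia tuber with Scutellaria and Coptis, herbs rich in flavones and berberine-type alkaloids, and with ginger, ginseng, licorice and jujube. Bojungikgi-tang is built on Astragalus root with ginseng, Atractylodes, Angelica, citrus peel, Cimicifuga, Bupleurum and licorice. Both are used in East Asian medicine for digestive complaints, and they share ginseng and licorice. Cells commonly answer a chemical load through a few known routes. The integrated stress response slows translation and raises the transcription factor ATF4, whose targets import and make amino acids. NRF2 raises antioxidant enzymes, the aryl hydrocarbon receptor raises xenobiotic-metabolising enzymes, and the MAPK, YAP and SRF pathways link growth signals and the actin skeleton to immediate transcription.

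Each library of the comparison held between 37.55 and 58.6 M counts assigned to genes. The Banhasasim-tang libraries carry label set 14 and the Bojungikgi-tang libraries label set 15, so formula and label set cannot be told apart, although each dose effect lies within 1 set. Nothing in the labels says that replicates were cultured apart, so the p-values reflect the spread of these libraries alone, and part of it may be technical. Bulk RNA cannot tell fewer cells of a kind from less RNA per cell. The share of counts from mitochondrially encoded genes was 12.04 to 12.62% with Banhasasim-tang at 500 µg/mL and 8.88 to 10.0% at 20, against 7.61 to 8.09% and 6.89 to 8.78% with Bojungikgi-tang, and its part in the results was not tested. Astrocyte markers were partly present: GJA1, a gap junction gene, averaged 203 CPM (counts per 1 M counts) over the 10 libraries, SLC1A3, a glutamate transporter, 27.5, and the filament gene GFAP 0.147. Levels below are CPM of a whole gene, and differences are log2 fold changes from edgeR's quasi-likelihood test with their standard error (SE). A gene was called at a Benjamini-Hochberg adjusted p below 0.05 over the 19632 genes tested.

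The dose effects of the formulas differed widely. Their difference (the interaction) was called for 6237 genes, 31.8% of those tested, of which 3233 (16.5%) were higher and 3004 (15.3%) lower with Banhasasim-tang relative to Bojungikgi-tang. The dose effect itself was called for 8572 genes (43.7%) with Banhasasim-tang, 4387 up (22.3%) and 4185 down (21.3%), and for 3051 genes (15.5%) with Bojungikgi-tang, 1304 up (6.64%) and 1747 down (8.9%). The share of higher against lower calls depended on how libraries were scaled. Scaled by library size alone, the interaction gave 1929 higher and 4625 lower calls, Banhasasim-tang 3359 and 5184, and Bojungikgi-tang 2329 and 1023, as the median interaction of all genes moved from 0.02 to -0.11.

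Most genes that answered the dose in both formulas moved the same way. Of 2066 genes called in both dose effects, 1632 shared their direction, which is 19.0% of the Banhasasim-tang calls and 53.5% of the Bojungikgi-tang calls. The other 434 genes moved in opposite directions and were also called for the interaction, making up 2.21% of all tested genes, 5.06% of the Banhasasim-tang calls and 14.2% of the Bojungikgi-tang calls. Of these, 214 (1.09%) rose with Banhasasim-tang and fell with Bojungikgi-tang, and 220 (1.12%) did the reverse. Opposite signs depend on where zero lies: library size alone as the scaling gave 584 such genes, 90 and 494 by direction, of which 310 were among the 434, 90 in the first direction and 220 in the second. Across genes, the dose values of the formulas had a Pearson r of 0.15 and a Spearman rho of 0.24, as a description of genes that are not independent replicates.

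**Figure D1:**
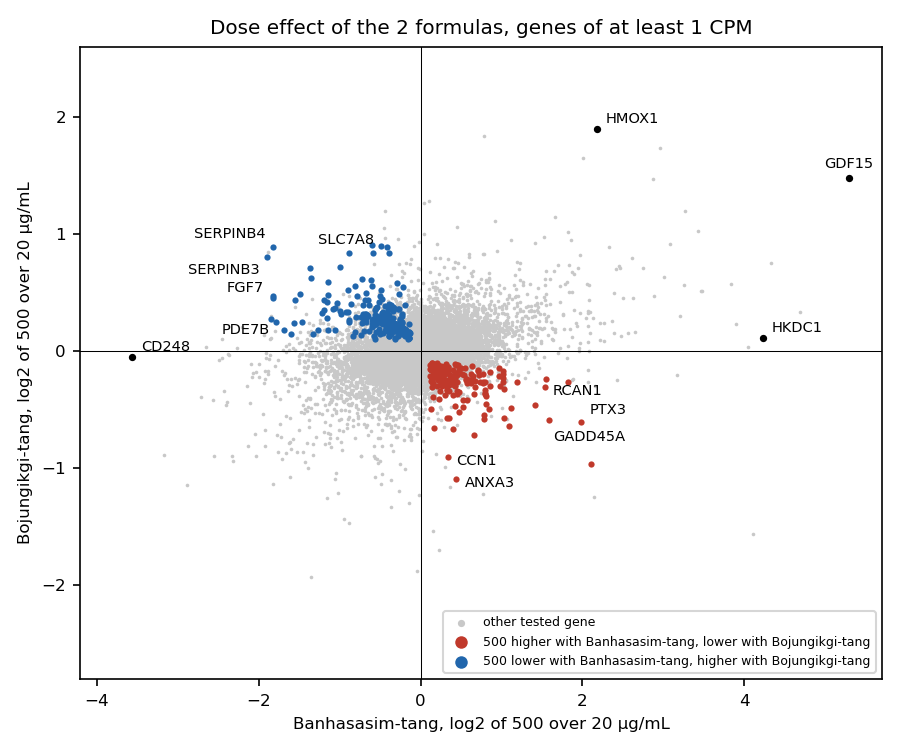
Each point is a gene of at least 1 CPM; the x axis is the log2 ratio of 500 over 20 µg/mL with Banhasasim-tang and the y axis the same with Bojungikgi-tang, with 422 opposite-direction genes in colour, 2 genes outside the axes not drawn, and names on selected genes. Coloured genes fill the lower right and upper left quadrants, while GDF15 and HMOX1 lie in the upper right and HKDC1 and CD248 lie near the horizontal zero line.

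The opposite-direction genes were well expressed and mostly moved further with Banhasasim-tang. Among the 434 genes, 422 averaged at least 1 CPM, beside 13993 of all 19632 tested genes. Of the 434, 411 were protein coding and 354 had the larger absolute value with Banhasasim-tang. Their median absolute dose value was 0.40 with Banhasasim-tang and 0.24 with Bojungikgi-tang, against 0.29 and 0.13 over all tested genes. Only 28 passed a 1.5-fold change in both formulas, and 16 of these averaged at least 1 CPM. The 500 and 20 µg/mL libraries did not overlap in either formula for 421 of them, while 1334 genes (6.8% of all tested) had no such overlap together with opposite signs. The median transcript length was 3532 bases for the genes higher with Banhasasim-tang and 4250 for those lower, against 2993 for all tested genes. All genes called higher and lower for the interaction had similar medians of 3458 and 3996.5 bases. The median GC content was 47.2 and 48.9% in those directions and 48.3% in all tested genes. Calls in both formulas were required of the 434 genes, which itself favours expressed genes and larger values, so nothing particular to them is read from these medians.

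Among the genes with the widest gaps in favour of Banhasasim-tang were a secreted defence protein and a DNA damage gene. PTX3 (chr3:157436789-157443628, plus strand, GRCh38) encodes pentraxin 3, a secreted pattern recognition protein of innate defence. Its libraries read 33 and 37 CPM at the low and 140 and 136 CPM at the high dose of Banhasasim-tang, against 33.2, 36.9 and 32.4 and then 21.6, 22.9 and 22.9 CPM with Bojungikgi-tang. Low dose libraries of the formulas overlapped, and the high dose libraries were far apart. PTX3 rose by 1.98 ± 0.07 and fell by 0.61 ± 0.06, an interaction of 2.59 ± 0.09 (SE, edgeR adjusted p 1.46e-17). GADD45A (chr1:67685061-67688338, plus strand), a growth arrest gene induced by DNA damage and by the integrated stress response, read 39.9 and 40.1 CPM and then 122 and 119 CPM with Banhasasim-tang. With Bojungikgi-tang it read 38.7, 44.3 and 35.1 CPM at the low and 24.9, 28.1 and 25.6 CPM at the high dose. Doses that do not overlap in either formula were required of the genes named here, so nothing is read from that. GADD45A rose by 1.59 ± 0.08 and fell by 0.59 ± 0.07.

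The other genes of this direction named by the rule had varied roles. RCAN1, an inhibitor of the phosphatase calcineurin, read 91.5 and 90.4 CPM and then 273 and 254 CPM with Banhasasim-tang. It read 90.9, 90.7 and 89.9 CPM and then 75, 72.7 and 72.8 CPM with Bojungikgi-tang, changes of 1.53 ± 0.04 and -0.30 ± 0.04. The 5 low dose libraries of RCAN1 lay close together, and its high dose libraries lay on either side of them. DUSP5, a nuclear phosphatase that switches off ERK, rose by 1.82 ± 0.07 and fell by 0.26 ± 0.06. MAFF, a small basic leucine zipper partner of NRF2 and related factors, rose by 1.55 ± 0.08 and fell by 0.24 ± 0.06. ADAMTS6, a secreted metalloprotease, rose by 1.41 ± 0.07 and fell by 0.46 ± 0.06. ANXA3, a calcium-dependent membrane-binding protein, was the only one of these 11 genes with the larger change in Bojungikgi-tang. ANXA3 read 15.9 and 13.9 CPM and then 20.1 and 20.5 CPM with Banhasasim-tang, against 13.7, 14.9 and 13.9 CPM falling to 6.67, 6.29 and 7.02 CPM with Bojungikgi-tang. PKP2 (a desmosome plaque protein), ALS2CL, the serotonin receptor HTR1D and the chemerin receptor gene CMKLR2 completed the 11, with interactions of 1.73, 1.60, 1.60 and 1.45. PKP2, ALS2CL and HTR1D averaged 1.27, 1.39 and 2.46 CPM, and MAFF, ALS2CL and CMKLR2 were not opposite-direction genes when scaled by library size alone.

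In the reverse direction the widest gaps belonged to a pair of protease inhibitors and a growth factor. FGF7 (chr15:49423096-49488775, plus strand), keratinocyte growth factor, read 30.1 and 32.3 CPM at 20 µg/mL and 9.55 and 8.18 CPM at 500 µg/mL of Banhasasim-tang. It read 34.8, 38.6 and 38.4 CPM and then 49.1, 52.1 and 54 CPM with Bojungikgi-tang. The vehicle libraries at 41.5, 43.4 and 40 CPM lay between the high doses. FGF7 fell by 1.82 ± 0.08 and rose by 0.47 ± 0.05, an interaction of -2.30 ± 0.10 (edgeR adjusted p 2.85e-16). SERPINB3, a serine and cysteine protease inhibitor of squamous epithelia, read 4.74 and 4.69 CPM falling to 1.14 and 1.37 CPM with Banhasasim-tang, and 7, 7.07 and 7.5 CPM rising to 12.1, 12.5 and 13.2 CPM with Bojungikgi-tang. SERPINB4 read 2.04 and 1.86, then 0.455 and 0.623 CPM with Banhasasim-tang, and 2.7, 3.19 and 2.87, then 5.45, 5.49 and 5.38 CPM with Bojungikgi-tang. Doses that do not overlap, in opposite senses in the formulas, were required of FGF7, SERPINB3 and SERPINB4 by the rule that named them. The interactions of SERPINB3 and SERPINB4 were -2.70 ± 0.28 and -2.72 ± 0.35. Reads common to SERPINB3 and SERPINB4 were apportioned by the model behind the deposited counts, so the split of the pair is uncertain.

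Their promoters are shown because the pair moved together and can hardly be told apart by sequence. RefSeq promoter windows (GRCh38.p14) were read for 16 of the 22 named genes, each the 250 bases upstream of the start RefSeq gives. That start lay within 250 bases of the gene's start in GENCODE for 9 of them; it lay 70 and 42 bases inside the GENCODE gene for SERPINB3 and SERPINB4, 5 bases inside for PDE7B and 1227 bases inside for MAFF, so the MAFF window lies within its GENCODE gene. The windows of SERPINB3 (chr18:63661894-63662143, minus strand) and SERPINB4 (chr18:63644257-63644506, minus strand) were identical at 247 of 250 positions (98.8%), and capitals mark the 3 positions that differ.
SERPINB3: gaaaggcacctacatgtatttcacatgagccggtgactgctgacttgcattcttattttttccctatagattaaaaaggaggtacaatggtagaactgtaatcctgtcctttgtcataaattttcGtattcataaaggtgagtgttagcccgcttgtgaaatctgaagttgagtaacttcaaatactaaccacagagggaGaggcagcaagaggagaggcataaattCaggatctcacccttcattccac
SERPINB4: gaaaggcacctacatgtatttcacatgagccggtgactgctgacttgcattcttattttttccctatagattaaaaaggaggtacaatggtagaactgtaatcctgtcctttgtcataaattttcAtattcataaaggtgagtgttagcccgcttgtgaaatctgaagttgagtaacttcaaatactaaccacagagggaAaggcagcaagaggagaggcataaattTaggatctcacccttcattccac

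Other genes of the reverse direction encode signalling proteins, enzymes and secreted ligands. PDE7B, a cyclic AMP phosphodiesterase, fell by 1.79 ± 0.09 and rose by 0.25 ± 0.06. ADORA1, the A1 adenosine receptor, which lowers cyclic AMP, fell by 1.56 ± 0.10 and rose by 0.25 ± 0.07. ANGPT1, a ligand of the vascular receptor TIE2, read 4.42 and 4.19 CPM and then 1.42 and 1.63 CPM with Banhasasim-tang, against 4.62, 4.64 and 5.43 CPM and then 6.64, 6.97 and 7.02 CPM with Bojungikgi-tang. The ANGPT1 interaction was -1.97 ± 0.17. RASL11A, a small GTPase-like protein, fell by 1.54 ± 0.10 and rose by 0.44 ± 0.06, and CYP26B1, which degrades retinoic acid, fell by 1.60 ± 0.07 and rose by 0.15 ± 0.05. The low-expressed genes NFE2, ATP8B4 and FAM20A had interactions of -2.28, -2.08 and -1.98 at means of 1.505, 1.46 and 1.43 CPM.

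The windows of MAFF and PDE7B are shown because they hold the same cyclic AMP response element while the genes moved in opposite directions. Of 4 motifs searched on both strands, the element TGACGTCA was found in 2 of the 16 windows, a CArG box in 1 (RCAN1), and neither the AP-1 motif TGANTCA nor the C/EBP-ATF motif TGATGNAA in any. The element TGACGTCA, a palindrome that contains none of the other motifs, is in capitals and occurs in 1.77% of 27305 promoter windows of that length and in 2.83% of the 12683 windows of tested genes, beside 3.05 and 2.35% of the windows of opposite-direction genes higher and lower with Banhasasim-tang. The CArG box occurs in 1.14% of all windows and 1.06% of those of tested genes. A match describes letters in a window, not binding. The MAFF window is chr22:38201744-38201993 (plus strand) and the PDE7B window chr6:135851451-135851700 (plus strand).
MAFF: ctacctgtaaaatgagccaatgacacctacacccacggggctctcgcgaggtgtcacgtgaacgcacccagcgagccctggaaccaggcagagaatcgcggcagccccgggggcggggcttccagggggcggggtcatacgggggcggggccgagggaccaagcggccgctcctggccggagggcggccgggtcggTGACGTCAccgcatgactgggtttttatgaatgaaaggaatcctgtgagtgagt
PDE7B: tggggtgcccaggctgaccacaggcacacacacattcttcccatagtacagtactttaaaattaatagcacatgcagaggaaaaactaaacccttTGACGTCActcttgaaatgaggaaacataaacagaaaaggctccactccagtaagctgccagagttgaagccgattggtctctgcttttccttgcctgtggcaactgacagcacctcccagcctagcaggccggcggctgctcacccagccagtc

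**Figure D2:**
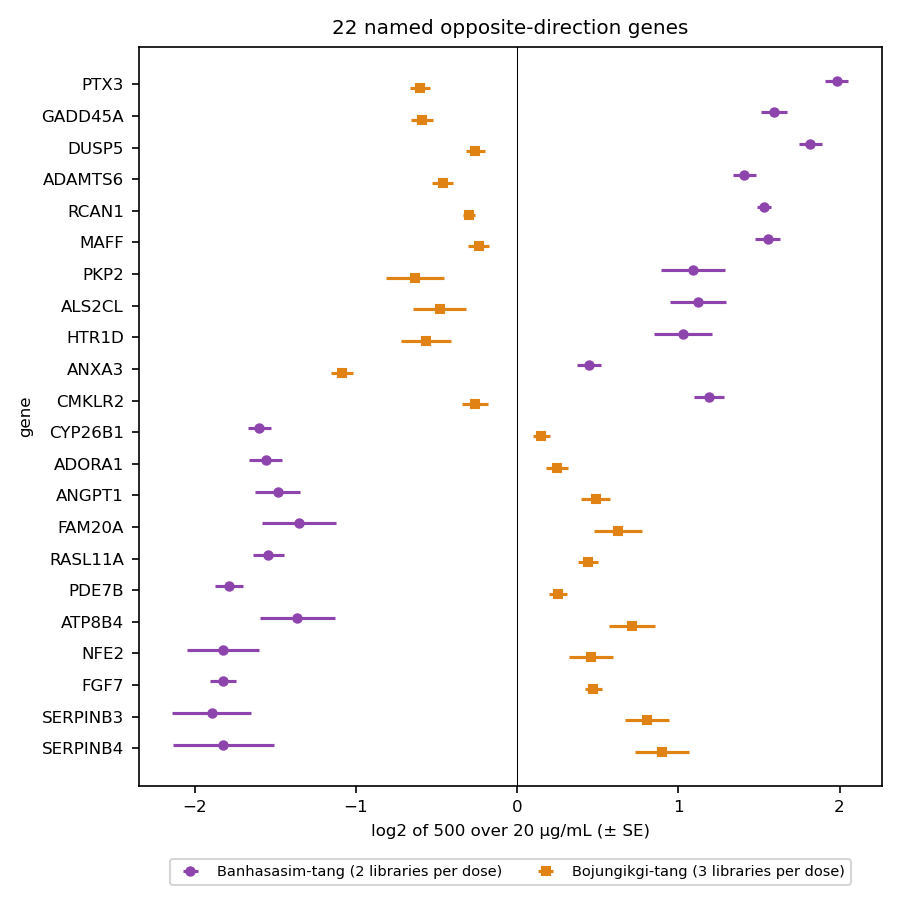
The 22 named opposite-direction genes reported, with the log2 ratio of 500 over 20 µg/mL on the x axis as fitted value ± SE, circles for Banhasasim-tang (2 libraries per dose) and squares for Bojungikgi-tang (3 libraries per dose). The 11 upper genes run from PTX3 at 1.98 and -0.61 to CMKLR2 at 1.19 and -0.26, and the 11 lower genes have the signs reversed.

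At 100 µg/mL most opposite-direction genes already lay between their low and high dose levels. The mean at 100 µg/mL lay between those at 20 and 500 µg/mL in both formulas for 342 of the 434 genes (78.8%), against 5930 of all 19632 tested genes (30.2%). The 434 genes were chosen for a called difference between the low and high dose in both formulas, which itself makes an intermediate mean more frequent, so nothing particular to them is read from these shares. FGF7 read 22.1 and 21.5 CPM at 100 µg/mL of Banhasasim-tang against 50, 45.2 and 44.1 CPM at that dose of Bojungikgi-tang. The libraries of the formulas did not overlap for FGF7 at this dose. The interaction of 100 against 20 µg/mL, which shares the 20 µg/mL libraries with the main comparison, was called for 760 genes (3.87%), 435 higher (2.22%) and 325 lower (1.66%), and in the same sense for 19 of the 22 named genes. Without scaling beyond library size it gave 215 higher and 1384 lower calls. Leaving out 1 Banhasasim-tang library at 20 or 100 µg/mL lowered the count to between 416 and 473.

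Levels at the high dose were also set beside vehicle, as a description, since the genes were chosen for high doses that moved apart. Of the 214 genes higher with Banhasasim-tang, 198 had a mean at 500 µg/mL above the vehicle mean with that formula and 5 with Bojungikgi-tang. Of the 220 genes of the reverse direction, 2 were above vehicle with Banhasasim-tang and 211 with Bojungikgi-tang. Over all tested genes the shares were 50.2 and 49.9%. The vehicle libraries belong to another label set (E1), so treatment and label set cannot be told apart in this view.

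**Figure D3:**
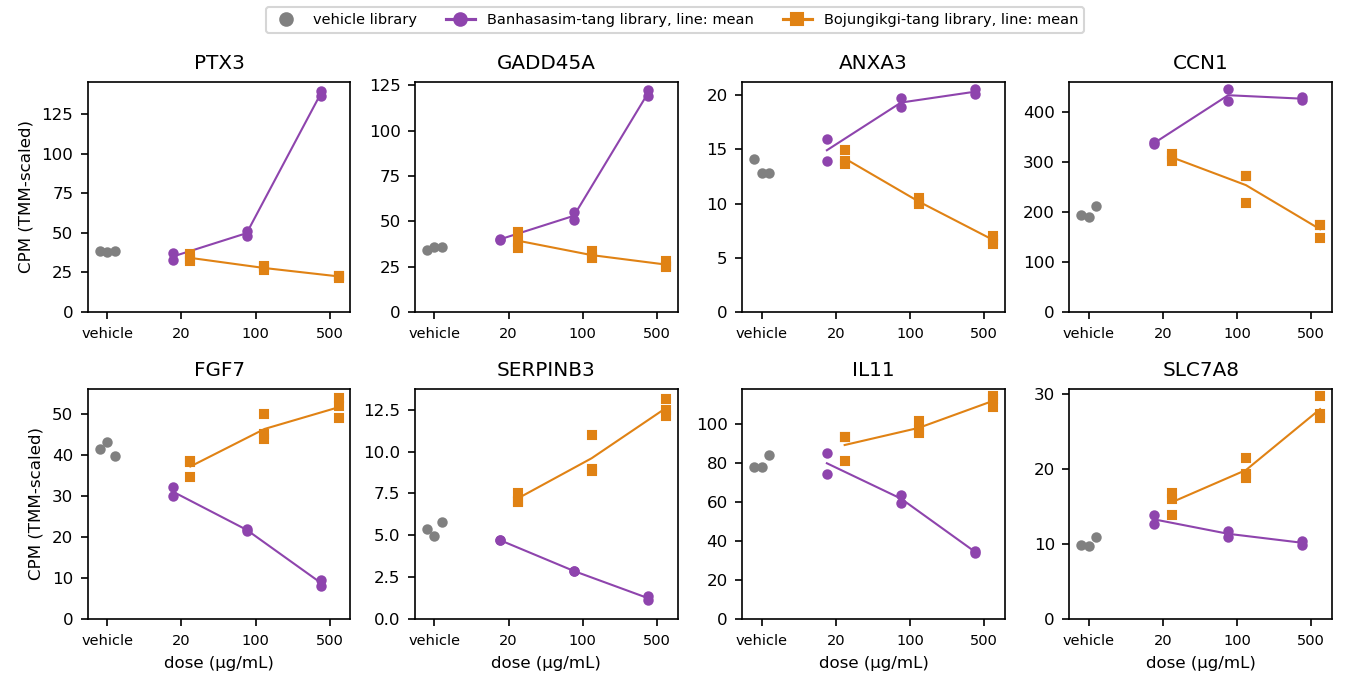
Level in CPM (y axis, from 0) of 8 genes in every library by dose (x axis, µg/mL, evenly spaced), with grey circles for vehicle, purple circles for Banhasasim-tang, orange squares for Bojungikgi-tang and lines through the means. PTX3, GADD45A, ANXA3 and CCN1 separate upwards with Banhasasim-tang and downwards with Bojungikgi-tang, and FGF7, SERPINB3, IL11 and SLC7A8 do the reverse.

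Among 43 gene lists, 20 held at least 1 opposite-direction gene, 34 distinct genes among 704 distinct members (4.83%, against 2.21% of all tested genes). The lists were chosen with earlier results of these data known, and opposite calls favour expressed genes, so nothing is read from these shares. To set beside the list counts, 22.3% of all tested genes rose and 21.3% fell with Banhasasim-tang. With Bojungikgi-tang 6.64% rose and 8.9% fell. YAP targets, genes switched on by the growth regulators YAP and TAZ, held 4 in 18 tested members, all higher with Banhasasim-tang. CCN1, a matricellular YAP target also known as CYR61, read 335 and 341 CPM and then 430 and 424 CPM with Banhasasim-tang, against 315, 312 and 302 CPM and then 148, 174 and 175 CPM with Bojungikgi-tang. The fall with Bojungikgi-tang (-0.90 ± 0.08) was larger than the rise with Banhasasim-tang (0.34 ± 0.10). FJX1 rose by 0.35 and fell by 0.57, GADD45B rose by 0.57 and fell by 0.23, and the receptor tyrosine kinase gene AXL rose by 0.12 and fell by 0.26; GADD45B and AXL lost the opposite call when scaled by library size alone. In the whole list the interaction was called higher for 8 and lower for 3 members (all genes: 16.5 and 15.3%), or for 7 and 6 when scaled by library size alone. With Banhasasim-tang 5 members rose and 8 fell (median -0.08), and with Bojungikgi-tang 1 rose and 14 fell. ANKRD1, a muscle ankyrin repeat gene, fell in both formulas, by 0.37 with Banhasasim-tang and by 1.33 with Bojungikgi-tang.

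Targets of SRF, which binds the CArG box and follows the state of actin, mostly fell in both formulas. Of 21 members, 14 fell and 1 rose with Banhasasim-tang, and 19 fell and 0 rose with Bojungikgi-tang, with median values of -0.38 and -0.42 beside 0.0067 and -0.00072 for all genes. FHL2, a LIM-domain coactivator, was the 1 opposite-direction member, with a rise of 0.38 ± 0.07 and a fall of 0.22 ± 0.05. SRF itself fell by 0.36 with Bojungikgi-tang and had a value of 0.09 that was not called with Banhasasim-tang.

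MAPK early and feedback genes held 3 opposite-direction members in 22, all higher with Banhasasim-tang. FOSL1, an AP-1 subunit, read 182 and 176 CPM and then 212 and 235 CPM with Banhasasim-tang, against 192, 153 and 180 CPM and then 120, 122 and 113 CPM with Bojungikgi-tang. The high doses of FOSL1 lay on either side of all low dose libraries. MYC, the growth-promoting transcription factor, rose by 1.02 ± 0.06 and fell by 0.17 ± 0.05, and the third member was DUSP5. MYC lost its opposite call when scaled by library size alone. In the list, 12 rose and 5 fell with Banhasasim-tang (all tested genes: 22.3 and 21.3%). With Bojungikgi-tang 4 rose and 5 fell (all tested genes: 6.64 and 8.9%), or 2 fell when scaled by library size alone. FOS, the founding AP-1 gene, fell by 1.18 with Banhasasim-tang and had a value of 0.07, not called, with Bojungikgi-tang, and PHLDA1 rose by 1.22 with Banhasasim-tang beside 0.01, not called.

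The BCL2 family, which sets the threshold of mitochondrial cell death, had opposite calls on both of its sides. The anti-apoptotic gene BCL2 read 7.06 and 8.58 CPM and then 13.6 and 13.5 CPM with Banhasasim-tang, against 7.71, 6.92 and 7.68 CPM and then 5.62, 5.95 and 5.91 CPM with Bojungikgi-tang. The anti-apoptotic BCL2L1 rose by 0.32 ± 0.05 and fell by 0.29 ± 0.04. The pro-apoptotic PMAIP1, which encodes NOXA, rose by 0.97 ± 0.08 and fell by 0.21 ± 0.06, and lost the opposite call when scaled by library size alone. Of 14 members, 8 rose and 3 fell with Banhasasim-tang (all tested genes: 22.3 and 21.3%), and 1 rose and 5 fell with Bojungikgi-tang (6.64 and 8.9%). BBC3, which encodes PUMA, rose by 2.27 with Banhasasim-tang at a mean of 0.848 CPM, and BMF fell by 0.68, with neither called for Bojungikgi-tang. Among 19 p53 targets, GADD45A was the 1 opposite-direction gene, while the death receptor gene TNFRSF10B rose in both formulas, by 1.85 and 0.19.

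Ribosome genes separated the formulas with small values. Of 30 cytosolic ribosomal protein genes, the interaction was called higher for 18 and lower for 0. Their median was 0.14 with Banhasasim-tang, where 6 rose, and -0.18 with Bojungikgi-tang, where 10 fell, and when scaled by library size alone 8 were called higher for the interaction, with medians of 0.07 and -0.13. RPS3 was the 1 opposite member, but its low dose libraries of Bojungikgi-tang (569, 726 and 547 CPM) differed widely among themselves, although all lay above the high dose libraries of 531, 529 and 527 CPM. Of 27 ribosome biogenesis genes, which process ribosomal RNA in the nucleolus, 16 were higher and 1 lower for the interaction, or 10 and 3 when scaled by library size alone. With Banhasasim-tang 9 rose and 7 fell, and with Bojungikgi-tang 19 fell and 0 rose. The opposite members were RRP9, NOLC1, RRP12, NOP2 and TSR1, with interactions of 0.49, 0.42, 0.36, 0.34 and 0.28. RRP9, a component of the U3 particle, read 43.8 and 43.3 CPM and then 50.5 and 54.3 CPM with Banhasasim-tang, against 44.1, 47.9 and 40.9 CPM and then 38.1, 39.2 and 37 CPM with Bojungikgi-tang. Of the 5 members, RRP9 was the 1 that was still an opposite-direction gene when scaled by library size alone.

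Of 21 cytokine genes, 2 were opposite-direction genes, both lower with Banhasasim-tang, while in the whole list the interaction was higher for 9 and lower for 5. IL11, a cytokine of the interleukin 6 family tied to fibrosis, read 74.5 and 85.4 CPM and then 34.9 and 34 CPM with Banhasasim-tang, against 93.5, 93.2 and 81.2 CPM and then 113, 114 and 109 CPM with Bojungikgi-tang. The IL11 interaction was -1.54 ± 0.08 (edgeR adjusted p 6.25e-14). CSF1, the macrophage growth factor, fell by 0.46 ± 0.05 and rose by 0.16 ± 0.04. Other members of the list went up with Banhasasim-tang: CXCL2 rose by 2.58 and CXCL3 by 3.78, both neutrophil chemokines below 1 CPM on average, with neither called for Bojungikgi-tang. In all, 10 cytokine genes rose and 6 fell with Banhasasim-tang (all tested genes: 22.3 and 21.3%), and 4 rose and 4 fell with Bojungikgi-tang (6.64 and 8.9%). Of 21 interferon response genes, 7 were lower and 2 higher for the interaction (all tested genes: 15.3 and 16.5%), or 11 and 1 when scaled by library size alone. MX2, an antiviral GTPase, fell by 0.52 ± 0.13 and rose by 0.28 ± 0.10 with an adjusted p of 0.0474 in edgeR for the rise.

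A list of FOXO factors, which are active when PI3K signalling is low, their targets and other genes of PI3K feedback held 3 opposite members in 17, all lower with Banhasasim-tang. In the list the interaction was higher for 5 and lower for 6 (all tested genes: 16.5 and 15.3%). With Banhasasim-tang 4 rose and 5 fell, near the shares of all tested genes (22.3 and 21.3%). With Bojungikgi-tang 9 rose and 2 fell (all tested genes: 6.64 and 8.9%). FOXO1 itself fell by 0.23 ± 0.07 and rose by 0.25 ± 0.06. TRIB2, a pseudokinase that restrains FOXO, read 48 and 48.4 CPM and then 34.2 and 35.9 CPM with Banhasasim-tang, against 50.7, 49.1 and 54 CPM and then 61, 60 and 60.3 CPM with Bojungikgi-tang. SESN3, a FOXO target that restrains mTORC1, fell by 0.52 ± 0.12 and rose by 0.42 ± 0.09. IRS2, an insulin receptor substrate, rose in both formulas, by 2.07 and 0.22. The glucocorticoid receptor gene NR3C1 fell by 0.18 ± 0.06 and rose by 0.18 ± 0.05.

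A single amino acid transporter went against its list. Of 13 transporters, 10 rose and 1 fell with Banhasasim-tang, and 8 rose with Bojungikgi-tang. The exception was SLC7A8, the LAT2 exchanger of neutral amino acids, which read 13.9 and 12.7 CPM and then 9.92 and 10.4 CPM with Banhasasim-tang, against 16, 13.8 and 16.8 CPM and then 27.4, 29.7 and 26.8 CPM with Bojungikgi-tang. Its interaction was -1.23 ± 0.13 (edgeR adjusted p 1.33e-08), but its opposite call was lost in some fit with a library left out. SLC1A4, an exchanger of alanine, serine and cysteine, rose in both formulas, by 1.42 and 0.16.

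Single members of other lists also had opposite calls. LPCAT3, which remodels phospholipids under the liver X receptor, fell by 0.58 ± 0.09 and rose by 0.22 ± 0.07. ADAMTS1, a proteoglycan-cleaving protease, rose by 0.74 ± 0.07 and fell by 0.26 ± 0.06. PFKP, a phosphofructokinase of glycolysis, rose by 0.22 ± 0.05 and fell by 0.20 ± 0.04, while 13 of 20 glycolysis genes fell with Banhasasim-tang and 10 with Bojungikgi-tang. LAMA4, a laminin chain, fell by 0.28 ± 0.06 and rose by 0.18 ± 0.05. ITGA3 (an integrin chain), LOX (a collagen cross-linker), VLDLR (a lipoprotein receptor) and SQLE (squalene epoxidase of sterol synthesis) rose by 0.12 to 0.29 with Banhasasim-tang and fell by 0.14 to 0.31 with Bojungikgi-tang, and all 4 lost the opposite call when scaled by library size alone.

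**Figure D4:**
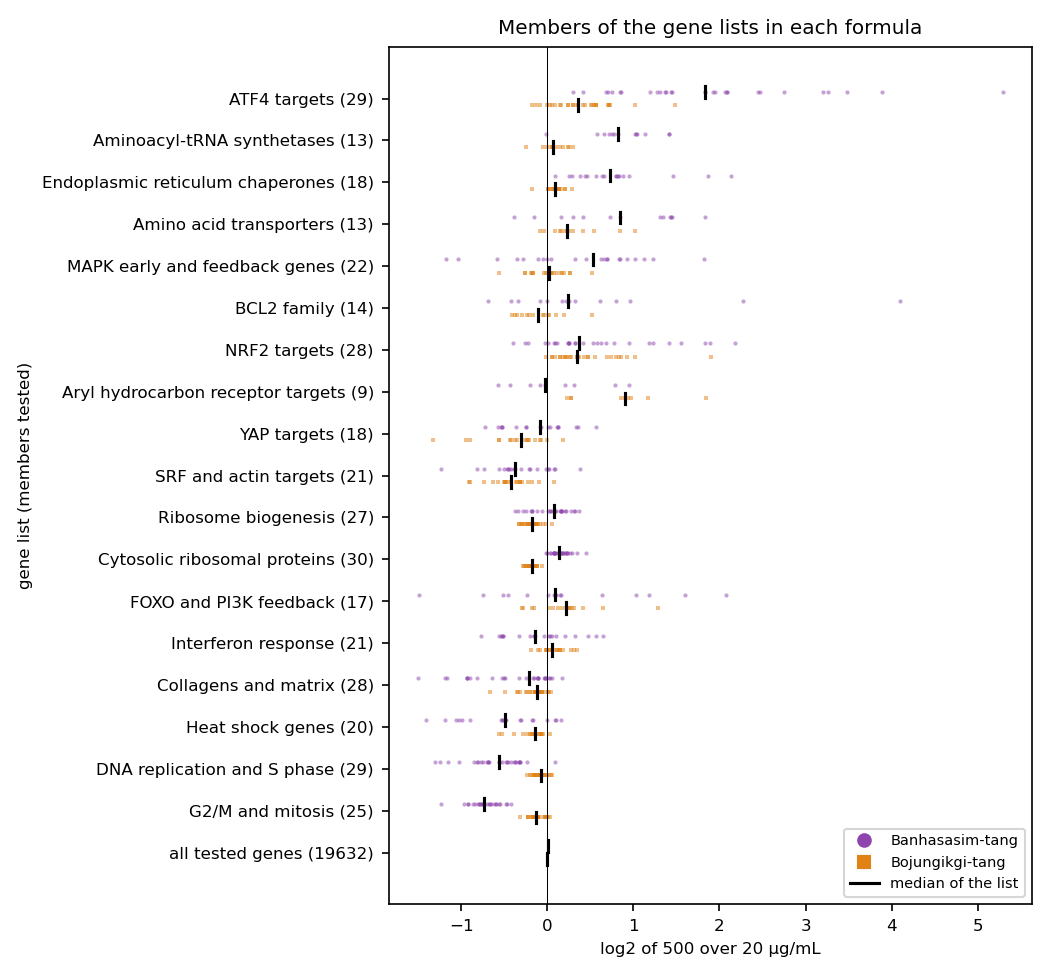
Members of 18 gene lists (y axis, number tested in brackets) by their log2 ratio of 500 over 20 µg/mL (x axis), purple circles for Banhasasim-tang, orange squares for Bojungikgi-tang and black bars for medians, with only the medians for all tested genes. ATF4 targets have medians of 1.83 and 0.36, G2/M genes -0.73 and -0.14, and ribosome biogenesis genes medians on either side of 0.

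The largest list-wide interactions came from genes that moved the same way in both formulas or answered 1 of them. All 29 ATF4 targets tested rose with Banhasasim-tang and were higher for the interaction, while 19 rose and 1 fell with Bojungikgi-tang. GDF15, a stress-induced cytokine, rose by 5.29 and 1.48, and DDIT3, which encodes the transcription factor CHOP, by 3.21 and 0.30. The 1 that fell with Bojungikgi-tang was VLDLR. The interaction was also higher for 13 of 13 aminoacyl-tRNA synthetase genes and 16 of 18 endoplasmic reticulum chaperones, among them HSPA5 (BiP), which rose by 1.87 with Banhasasim-tang and had a value of 0.12, not called, with Bojungikgi-tang. In contrast, all 25 G2/M genes and 27 of 29 DNA replication genes were lower for the interaction, and 25 and 28 of them fell with Banhasasim-tang against 14 and 6 with Bojungikgi-tang (6 and 3 when scaled by library size alone). Cytosolic heat shock genes fell in both formulas, 16 and 11 of 20 (5 with Bojungikgi-tang when scaled by library size alone), with HSPA1A at -1.41 and -0.14, whose reads are shared with the near-identical HSPA1B.

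Xenobiotic genes differed by regulator. Of 28 NRF2 targets, 19 rose with Banhasasim-tang and 22 with Bojungikgi-tang, with medians of 0.37 and 0.35. GCLC, the catalytic subunit for glutathione synthesis, rose by 1.89 and 0.35, whereas AKR1B10, an aldo-keto reductase, rose by 0.74 with Bojungikgi-tang and had a value of -0.27, not called, with Banhasasim-tang. Of 9 aryl hydrocarbon receptor targets, 6 rose with Bojungikgi-tang and 2 with Banhasasim-tang, and 4 were lower for the interaction. CYP1B1, a xenobiotic-metabolising cytochrome, rose by 0.90 with Bojungikgi-tang beside a value of -0.09, not called, and its interaction was -0.99 ± 0.22.

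The genes of at least 1 CPM with the largest interactions regardless of class included SERPINB4 and SERPINB3 and several called with Banhasasim-tang and not with Bojungikgi-tang. HKDC1, a hexokinase-like gene, read 2.42 and 2.39 CPM at the low and 45.3 and 45.3 CPM at the high dose of Banhasasim-tang, against 2, 2.22 and 2.87 and then 2.52, 2.2 and 2.94 CPM with Bojungikgi-tang. The Bojungikgi-tang doses of HKDC1 overlapped and the Banhasasim-tang doses were far apart. LAMP3, a lysosomal membrane gene induced by stress, rose by 4.69 ± 0.25 and OSCAR, an immune collagen receptor, by 4.04 ± 0.26 with Banhasasim-tang, with neither called for Bojungikgi-tang. CD248, endosialin of stromal cells, read 6.65 and 5.29 CPM and then 0.625 and 0.422 CPM with Banhasasim-tang, against 6.96, 6.3 and 6.86 and then 6.54, 6.14 and 6.73 CPM with Bojungikgi-tang. Its interaction was -3.51 ± 0.20. RPS10-NUDT3, a readthrough annotation that shares reads with RPS10 and NUDT3, had an interaction of 5.67 ± 2.07 with an edgeR adjusted p of 0.048, no call for either dose effect and an uncertain level. A further 3 unnamed or antisense loci had large values (6.05, -10.42 and -2.74) that were not called.

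Of the 33 tested markers of astrocytes, neurons, oligodendrocytes, myeloid cells or epithelial and liver cells, 0 had opposite calls, which is near the share of all tested genes (2.21%), and 1 astrocyte marker had them when scaled by library size alone. Of 10 astrocyte markers, 6 fell with Banhasasim-tang and 2 with Bojungikgi-tang (all tested genes: 21.3 and 8.9%), with SLC1A3 at -1.90 and -0.06 (not called). Of 4 myeloid markers, CSF1R fell by 1.38 with Banhasasim-tang, PTPRC fell in both formulas, by 1.92 and 0.81, CD68 rose in both, by 0.23 and 0.26, and CD14 was called in neither. The keratin gene KRT18 fell alike, by 1.06 and 1.09, and KRT7 fell by 0.52 with Bojungikgi-tang beside 0.03, not called.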

How the data were processed

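RNA sequencing of SW1783 cells was analysed from the expected counts per gene that the authors deposited, which are model estimates and need not be whole. Per the submitters' processing notes, STAR 2.7.3a, RSEM 1.3.3, Trim Galore 0.6.5 and FastQC 0.11.9 were used with hg38, in no stated order. The release of the annotation was not found in the notes or labels. Per the labels' protocols, the library kit marks strand. Between 9.93 and 10.9% of the values in the 10 libraries were not whole, and all were rounded. Symbols were found for 93.2% of 60675 identifiers, and gene coordinates came from GENCODE release 29 on GRCh38.

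Groups came from the sample labels. Genes passed edgeR's filterByExpr (19632 left, where enough counts in 1 library suffice), libraries were scaled by TMM, and 13 group means over 30 libraries were fitted by glmQLFit with robust estimation and tested by glmQLFTest (edgeR 4.0.16, R 4.3.3), leaving 17 residual degrees of freedom. The interaction was the Banhasasim-tang difference minus the Bojungikgi-tang difference. An opposite-direction gene had the interaction and both dose differences called with opposite signs. The SE was approximated as the absolute log2 value divided by the root of the F statistic. The scripts were tested on simulated data. The mean chi-square per gene between replicates of a group was 3.50 to 33.2, above sampling noise, so no pair was treated as 1 library. Replicate 2 of Bojungikgi-tang at 20 µg/mL stood apart. Its pairs had 32.8 and 33.2, the other pair of that group 13.6, and pairs of the other groups 3.50 to 9.49. Without that library, 6462 genes were called for the interaction and 9142 for the Banhasasim-tang dose effect, the highest counts with 1 library left out.

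Named genes were the 12 opposite-direction genes in each direction with the largest interaction, a mean of at least 1 CPM and doses that did not overlap, then the opposite members and up to 4 further members of each of 43 lists, and the 5 genes of at least 1 CPM with the largest interaction in each direction. Of the first kind, 11 in each direction are reported, and 1 in each is not reported here. Not every further member is printed. The comparison, the lists and the rule were chosen with earlier results of these data known. Alternatives were library size or DESeq2 size factors as the scaling, DESeq2 1.42.0, other filters on low counts, the compared libraries alone, the replicate number as a block, the level of 18S loci as a covariate, and each replicate left out.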

Additional observations from a re-analysis of the deposited data

Results flagged for a closer look

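The difference between the dose effects of the formulas was itself tested, and each result below is listed because that test found the effects to differ. The interaction of 500 against 20 µg/mL was called for 6237 genes and that of 100 against 20 µg/mL for 760, and 434 genes moved in opposite directions.

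Ranges are the interaction with each of the 10 libraries left out in turn. Among defence, stress and signalling genes higher with Banhasasim-tang, PTX3 had 2.59 (2.50 to 2.67), GADD45A 2.18 (2.08 to 2.26) and DUSP5 2.08 (2.00 to 2.15). ADAMTS6 had 1.87 (1.82 to 1.92), RCAN1 1.83 (1.78 to 1.88) and MAFF 1.79 (1.74 to 1.84). The ranges were wider for the low-expressed PKP2 at 1.73 (1.62 to 1.85), ALS2CL at 1.60 (1.44 to 1.77) and HTR1D at 1.60 (1.40 to 1.75). ANXA3 had 1.53 (1.44 to 1.64) and CMKLR2 1.45 (1.36 to 1.54).

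In the reverse direction, the protease inhibitors SERPINB4 and SERPINB3 had -2.72 (-3.002 to -2.542) and -2.70 (-2.87 to -2.59). The growth factor FGF7 had -2.30 (-2.40 to -2.19), NFE2 -2.28 (-2.44 to -2.07), ATP8B4 -2.08 (-2.22 to -1.95) and PDE7B -2.04 (-2.18 to -1.90). RASL11A had -1.98 (-2.19 to -1.84), FAM20A -1.98 (-2.13 to -1.83) and ANGPT1 -1.97 (-2.10 to -1.89). ADORA1 had -1.81 (-1.85 to -1.75) and CYP26B1 -1.75 (-1.88 to -1.65). The highest adjusted p of the interaction of these 22 genes with a library left out was 0.000267 in edgeR, for HTR1D. The opposite-direction call, which also needs both dose effects, was less firm. PKP2, ALS2CL, HTR1D, CMKLR2, NFE2, ADORA1 and CYP26B1 lost it in some fit with a library left out. ALS2CL and NFE2 also lost it with DESeq2.

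Outside the opposite-direction genes, LAMP3 had 4.35 (4.26 to 4.49), HKDC1 4.12 (3.95 to 4.23), OSCAR 4.00 (3.77 to 4.23) and CD248 -3.51 (-3.77 to -3.22). RPS10-NUDT3 had 5.67 (4.61 to 8.60), and its adjusted p reached 0.17 in edgeR with 1 library left out.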

How the results depend on the processing

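The count of opposite-direction genes (434) moved with the libraries in the fit and with the scaling. With only the compared libraries it was 270, of which 259 were among the 434, the Bojungikgi-tang calls fell to 1955 and the interaction of 100 against 20 µg/mL to 300. The last count was 1599 with library size as the only scaling. Whether replicate numbers pair the samples could not be settled. Deviations of same-numbered libraries correlated at -0.13 with Banhasasim-tang, where 2 libraries per dose force the crossed value to its mirror image, 0.13. With Bojungikgi-tang same-numbered libraries correlated at 0.06, 0.01 and -0.04, inside the range of different-numbered ones (-0.10 to 0.08). The replicate block over 30 libraries gave 6180 interaction calls, 412 opposite-direction genes, 8469 Banhasasim-tang, 2883 Bojungikgi-tang and 673 calls at 100 µg/mL. The replicate block with only the compared libraries gave 189 opposite-direction genes, 1474 Bojungikgi-tang calls and 287 at 100 µg/mL, and with the Banhasasim-tang numbers crossed, a setting chosen after seeing the data, 246 opposite-direction genes. The cause was not tested beyond the fewer libraries in these fits. DESeq2 gave 417, of which 381 were shared, and DESeq2 size factors 439. With each library left out in turn the interaction gave 5264 to 6462 calls, opposite-direction genes 313 to 527, Banhasasim-tang 6855 to 9142, Bojungikgi-tang 2228 to 3474 and 100 against 20 µg/mL 416 to 907. In all 20 alternative settings 136 of the 434 genes kept their calls, 58 higher and 78 lower with Banhasasim-tang, and so did 13 of the 22 named genes. In every fit with a library left out 175 of the 434 kept the opposite call. List members that lost it in some such fit include SLC7A8, FOSL1, FHL2, FOXO1, NR3C1, LPCAT3 and MX2, and MX2 also lost it with DESeq2.

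Interactions of the 231 named genes changed sign only where not called: with library size as the only scaling KRT19 (-0.00093) and KRT18 (-0.091), with the 18S level RMRP (-0.064), and with a library left out CD68 (-0.14 to 0.069), H1-4 (-2.22 to 0.14), GFAP (-1.14 to 0.19), KRT19 (-0.53 to 0.72), NOTUM (-0.039 to 1.31), STMN2 (-0.92 to 1.31), KRT18 (-0.066 to 0.089) and MMP13 (-0.029 to 1.03). Small dose values limit what can be called: the median SE of genes of at least 1 CPM was 0.08 with Banhasasim-tang, 0.06 with Bojungikgi-tang and 0.10 for the interaction.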

Other observations

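Several gene families outside the lists held opposite-direction genes, and were grouped after their values were seen, so their counts are a description with no test. Of all tested genes, 22.3% rose and 21.3% fell with Banhasasim-tang, and 6.64% rose and 8.9% fell with Bojungikgi-tang. The interaction was higher for 16.5% and lower for 15.3%, and 2.21% were opposite-direction genes. Of 12 tested genes of antigen presentation by MHC class II and its regulators, 3 fell with Banhasasim-tang, 5 rose with Bojungikgi-tang and 3 did both. CIITA, the master activator of MHC class II genes, read 12.5 and 13 CPM at the low and 8.67 and 9.28 CPM at the high dose of Banhasasim-tang, against 15.3, 12.5 and 14.9 and then 19.2, 21.2 and 19 CPM with Bojungikgi-tang. RFX5, which binds the promoters of these genes, fell by 0.42 and rose by 0.19, and HLA-DMB, a peptide-loading chaperone, fell by 0.59 and rose by 0.84. HLA-DMA and CD74 rose by 0.35 and 0.20 with Bojungikgi-tang, and the other 7 were called in neither formula. Of 6 tested genes of the complement components C1, C2, C3 and C4, 2 were opposite-direction genes. Other complement genes were not counted. C3, the central complement protein, fell by 0.27 and rose by 0.49. C1R, a protease of the first complement component, fell by 0.20 and rose by 0.19. C1S and C4A rose by 0.33 and 0.39 with Bojungikgi-tang, without a call in the other formula. C4B fell by 0.41 and C2 rose by 0.40 with Banhasasim-tang, again without a call in the other formula. Reads of C4A and C4B can be shared between these near-identical copies. All 5 opposite-direction genes named here kept the call under the other scalings. So did all 220 genes lower with Banhasasim-tang, so this is not particular to them. HLA-DMB and C1R lost the call in some fit with a library left out.

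Host genes of small nucleolar RNAs, long noncoding transcripts that carry these RNAs in their introns, went the other way. Of 28 tested, 14 were higher and 2 lower for the interaction and 6 were opposite-direction genes, all higher with Banhasasim-tang. GAS5 read 56.6 and 56.9 CPM and then 106 and 101 CPM with Banhasasim-tang, against 50.7, 61.3 and 50.1 and then 43.3, 44.3 and 44.1 CPM with Bojungikgi-tang. SNHG7 had an interaction of 1.12, SNHG17 of 0.71 and SNHG32 of 0.56, whereas ZFAS1 and SNHG5 lost the opposite call under library size as the only scaling. Of 15 protocadherin beta genes, clustered cell adhesion genes whose reads can be shared between near-identical copies, 12 fell with Banhasasim-tang and 5 rose with Bojungikgi-tang, and those 5 were opposite-direction genes. Each of those 5 lost the call in some fit with a library left out, and PCDHB10 also lost it with DESeq2. Of all 434 opposite-direction genes, 175 kept the call in every such fit. Of 28 tested interleukin receptor genes, 6 rose and 8 fell with Banhasasim-tang, near the shares of all tested genes (22.3 and 21.3%). With Bojungikgi-tang 7 rose and 1 fell (all tested genes: 6.64 and 8.9%), and 4 were opposite-direction genes. Of these, IL1R1, IL4R, IL6R and IL22RA1 fell by 0.48, 0.23, 0.48 and 0.89 and rose by 0.29, 0.30, 0.45 and 0.52, whereas IL20RB rose in both formulas, by 1.90 and 0.66, and IL7R fell in both, by 1.12 and 0.30. IL6R lost the opposite call with DESeq2 and in some fit with a library left out. Of 6 tested DLX homeobox genes, 5 fell with Banhasasim-tang and 3 rose with Bojungikgi-tang, and those 3 were opposite-direction genes. DLX1, DLX2 and DLX3 fell by 0.33, 0.39 and 0.65 and rose by 0.20, 0.40 and 0.44. DLX5 and DLX6, at means of 0.169 and 0.197 CPM, fell by 1.75 and 1.64 with Banhasasim-tang. With Bojungikgi-tang they had values of -0.40 and -0.54, not called, and DLX4 was called in neither formula. PCSK1, the prohormone convertase, read 8.95 and 9.14 and then 5.83 and 6.09 CPM with Banhasasim-tang, against 9.71, 8.93 and 9.42 and then 17.3, 17.5 and 17.8 CPM with Bojungikgi-tang.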
